A study of Mus musculus with 8 samples.

Results

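The genes described here are 4 actins (Actb, Actg1, Acta1, Acta2), the 4 tropomyosins (Tpm1, Tpm2, Tpm3, Tpm4), cofilin 1 (Cfl1) and profilin 1 (Pfn1), 10 genes of the 19896 listed in both deposited tables. They come from a given list of symbols, were matched by Ensembl ID to symbols of the GENCODE vM21 annotation of GRCm38, and were all found. RNA was sequenced from mouse E14 embryonic stem cells, an established pluripotent line, in 8 libraries, 2 in each of 4 groups. Cct7 KD and Cct5 KD cells carried a short hairpin RNA against Cct7 or Cct5 that doxycycline switches on, in the pLKO-Tet-on vector, and Cct7 KD Ctr and Cct5 KD Ctr cells carried the empty vector. All 4 groups were selected in puromycin (0.5 µg/ml, 14 days), kept in serum with LIF and given doxycycline (2 µg/ml, 2 days), controls included. The series asks whether these 2 chaperonin subunits act as a barrier between the pluripotent and the totipotent state. Whether a group is 1 clone, and whether its 2 libraries come from separate cultures, is not stated in the labels, so p-values measure only the spread between these libraries, which may be technical.

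Actin monomers assemble into filaments that carry cell shape, adhesion and contraction. Newly made actin is folded by the chaperonin CCT (TRiC), of which Cct5 and Cct7 encode subunits. Profilin loads monomers onto growing filament ends, cofilin severs old filaments, and tropomyosins are coiled-coil rods that lie along the filament and set which other proteins bind it. Monomeric actin also holds back the MRTF cofactors of the transcription factor SRF, and many actin and actin-binding genes are textbook SRF targets with a CArG box in the promoter.

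The hairpin target was low where its label says so. Cct7 stood at 269 and 280 FPKM (fragments per kilobase of transcript, relative to library depth) in the Cct7 KD Ctr libraries, against 14.4 and 17.8 in Cct7 KD. Cct5 stood at 368 and 367 in Cct5 KD Ctr, against 70.8 and 73.4 in Cct5 KD. In Cct7 KD the level of Cct5 was also below its controls, at 280 and 271 against 356 and 360 FPKM. Depth, read from the step between low FPKM values, was 18.9 to 54.7 M fragments in the 6 libraries other than Cct5 KD. The Cct5 KD values are not independent of Cct7 KD: for 19881 of 19896 genes, these 10 included, they can be written as 9/8 of the value in the Cct7 KD library with the same number and a remainder that is not negative. Cct5 itself is an exception: its Cct5 KD values lie below 9/8 of its Cct7 KD values. The ratio 9/8 was the most common one between the paired values, held by 876 of 39438 pairs against 375 for the next. As deposited, at best 68.6% and 50.2% of their low values were whole multiples of a step (within 0.05 of a fragment), against 98.9% and 99.1% for the remainders. The comparisons of Cct5 KD below are therefore given as deposited and with the remainder in its place, and no difference between the knockdowns was tested. As deposited, the summed FPKM of 8 embryonic stem cell markers was 4434 to 4648 in Cct7 KD Ctr and 1014 to 1022 in Cct7 KD. It was 2254 to 2259 in Cct5 KD and 4550 to 4608 in its controls, with each of the 8 above 1 FPKM. Median-of-ratios scaling would divide the Cct5 KD values by 1.77 and 1.79 and those of Cct7 KD by 1.19 and 1.20, so these sums do not rank the knockdowns. With the scaled remainder, 87.5% of the 8 were called lower and 0% higher, against 41.7% and 41.5% of all genes.

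The actin genes are close copies of each other, so the first 45 coding bases of the 4 are shown, where the cytoplasmic pair and the muscle pair can be told apart. They were read from the GENCODE vM21 transcripts, on the minus strand of GRCm38, and lie in exon 2 of each gene. Their places are chr5:142905642-142905686 for Actb, chr11:120348047-120348091 for Actg1, chr8:123893653-123893697 for Acta1 and chr19:34252509-34252553 for Acta2. Capitals mark bases that differ from Actb in an alignment of the whole coding sequences.
Actb: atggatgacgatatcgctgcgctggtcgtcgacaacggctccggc
Actg1: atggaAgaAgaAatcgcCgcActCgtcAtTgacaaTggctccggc
Acta1: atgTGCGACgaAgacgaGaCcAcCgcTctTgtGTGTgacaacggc
Acta2: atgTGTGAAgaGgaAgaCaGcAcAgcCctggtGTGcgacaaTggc
Over the whole coding sequence Actb and Actg1 shared 88.65% of bases, and Acta1 and Acta2 shared 85.36%. The longest identical stretch between Actb and Actg1 was 62 bases, and between Actb and Acta1 77 bases. No pair of the 4 shared a window of 100 coding bases. How reads that match more than 1 gene were assigned is not stated in the labels or notes, and the values of Acta1 and Acta2 are small beside those of Actb and Actg1, so the muscle actin levels carry that uncertainty.

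Matches to the SRF motif are shown for 3 members that moved in different directions, because all 3 hold a CArG box or a close match in the bases before the transcription start. The motif searched was the CArG box of 10 letters, which reads the same on both strands, in the 250 bases before each RefSeq start (GRCm38.p6). The 30 bases around each match are on the minus strand, at chr11:120348566-120348595 for Actg1, chr8:123894829-123894858 for Acta1 and chr9:67049415-67049444 for Tpm1. The Actg1 and Tpm1 stretches lie outside any GENCODE gene, and that of Acta1 lies within the span of Gm20388 on the other strand. Capitals mark the match.
Actg1: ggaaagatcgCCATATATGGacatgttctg
Acta1: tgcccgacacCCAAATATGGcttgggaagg
Tpm1: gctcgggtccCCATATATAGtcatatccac
Actg1 and Acta1 each held 1 exact box, beginning 90 and 73 bases before the start. The Tpm1 match shown begins 221 bases before the start, and a further one with 1 letter off begins at 80. Tpm1, Acta2, Cfl1 and Tpm3 held only matches with 1 letter off, and Pfn1, Tpm2 and Tpm4 held neither. In all, 2 of the 10 start sites of these 9 genes (all but Actb) had an exact box, against 1.47% of 32851 start sites in the RefSeq table, and 7 had an exact box or a match with 1 letter off, against 18.6%. Actg1 and Acta1, the genes with an exact box, moved in opposite directions (below), and Tpm4, which moved most among the genes tested, had no match in this window. The last 30 bases before the RefSeq starts of Tpm4 and Tpm2 lie in an annotated exon of the same gene. So do the 30 bases around the Acta2 match that begins 84 bases before its start. Those around the Tpm3 match that begins 162 bases before its start site 2 lie within the Tpm3 gene. For Tpm4 all 250 bases searched lie within the GENCODE gene, so the bases before its GENCODE start were not searched. The part of SRF in these changes was not tested.

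Among the 8 genes with enough signal to test in Cct7 KD, Tpm1, Tpm2 and Tpm4 rose, Tpm3 rose slightly (and was lower after scaling), Actg1 and Pfn1 fell, and Actb and Cfl1 did not pass the test. To be tested, a gene had to average 1 FPKM or more in the 4 libraries. Acta1 and Acta2 were below that and are described separately. Of the 8, 4 were called higher and 2 lower (limma on log2(FPKM + 1), Benjamini-Hochberg adjusted p under 0.05), where 81.4% of all 13588 genes tested were called, 49.3% higher and 32% lower. With so many genes called, a call alone says little about these genes, and the sizes below matter more. When libraries were scaled by the median of ratios, the median change of all genes went from 0.15 to -0.063 on the log2 scale, the 8 genes split into 3 higher and 5 lower, and 81.1% of all genes were called, 37.4% higher and 43.7% lower. The members' median change was 0.10 as deposited and -0.15 after scaling. In bulk RNA, fewer cells of a type and less RNA per cell cannot be told apart.

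**Figure D1:**
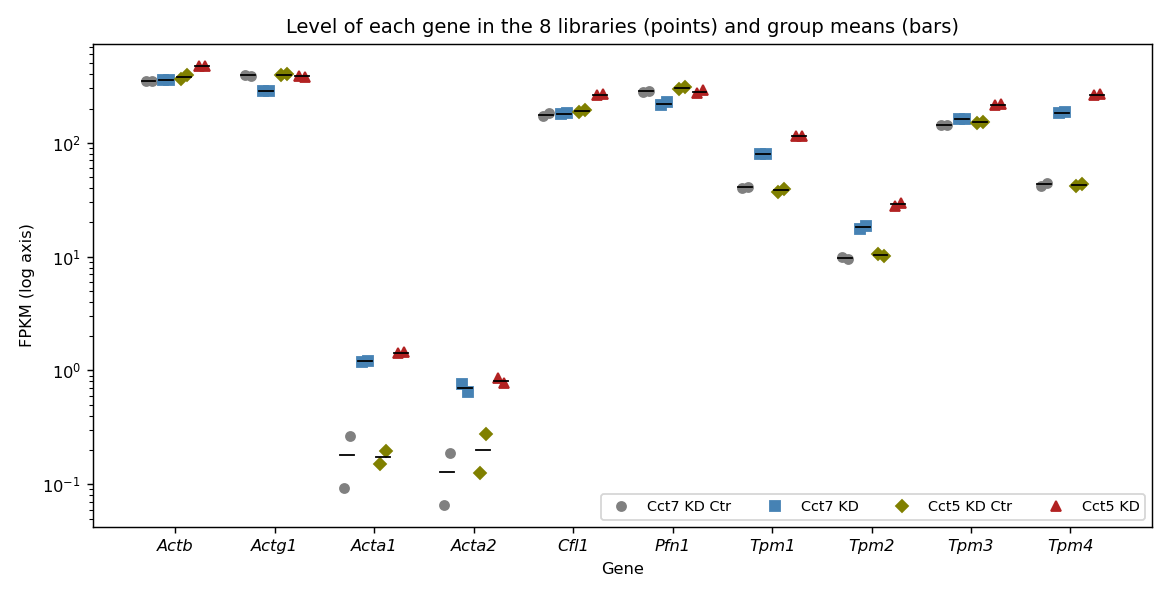
FPKM (log axis) of the 10 genes in each library, 1 point per library, coloured by group, with a bar at each group mean. Tpm4 moves from 42.0 and 44.7 FPKM in Cct7 KD Ctr to 184 and 185 in Cct7 KD, and Acta1 and Acta2 stay below 1.5 FPKM in all 8 libraries.

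Tpm4, a tropomyosin gene of non-muscle cells, had the largest change of the 8. It measured 42.0 and 44.7 FPKM in Cct7 KD Ctr against 184 and 185 in Cct7 KD, so the groups lay far apart. The means were 43.3 ± 1.88 and 184 ± 0.96 FPKM (SD, n = 2 each), 4.25-fold higher in Cct7 KD. The change on the log2(FPKM + 1) scale was 2.06 (SE 0.036, adjusted p = 1.446e-06), which placed Tpm4 above 98.2% of all genes tested and at rank 247 of 13588. It was also called higher after scaling, by 1.81. In Cct5 KD Ctr it measured 41.5 and 43.2 FPKM, and in Cct5 KD 263 and 266.

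Tpm1, whose many splice forms serve muscle and non-muscle filaments alike, measured 40.2 and 41.0 FPKM in Cct7 KD Ctr against 80.1 and 80.0 in Cct7 KD. Both knockdown libraries stood at close to the same level, 1.97-fold above the control mean (log2 change 0.96, SE 0.027, adjusted p = 3.876e-06). Tpm2, best known from muscle and the lowest tropomyosin here, measured 9.87 and 9.62 FPKM in Cct7 KD Ctr against 17.7 and 18.7 in Cct7 KD. It rose 1.87-fold (log2 change 0.84, SE 0.046, adjusted p = 2.846e-05), and both genes were also called higher after scaling, by 0.71 and 0.60.

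Tpm3, the most abundant tropomyosin of the controls and a main non-muscle form, measured 144 and 144 FPKM in Cct7 KD Ctr against 161 and 161 in Cct7 KD. The libraries of a group differed by less than 1 FPKM and the groups did not overlap. The change of 0.16 (SE 0.023, adjusted p = 0.0014) was a rise as deposited but was close to the median of all genes, and after scaling Tpm3 was called lower, by -0.091.

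The make-up of the tropomyosin pool, which can be read within each library without any scaling, differed between the groups. Tpm3 made up 60.9% and 60.2% of the summed Tpm1 to Tpm4 FPKM in Cct7 KD Ctr against 36.3% and 36.2% in Cct7 KD. Tpm4 made up 17.8% and 18.7% in the controls and 41.5% and 41.6% in the knockdown, so it passed Tpm3 as the leading tropomyosin. The ratio of Tpm4 to Tpm3 was 0.293 and 0.310 in Cct7 KD Ctr against 1.14 and 1.15 in Cct7 KD. The share of Tpm1 was 17.0% and 17.1% in Cct7 KD Ctr against 18.1% and 18.0% in Cct7 KD, and that of Tpm2 overlapped between the groups at 4.19% and 4.02% against 4.00% and 4.22%. With 2 libraries against 2, no exact permutation test can reach 0.05, so shares and ratios are given with no test. FPKM corrects each gene for 1 length, and a switch between long and short transcripts of a gene would change its share.

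**Figure D2:**
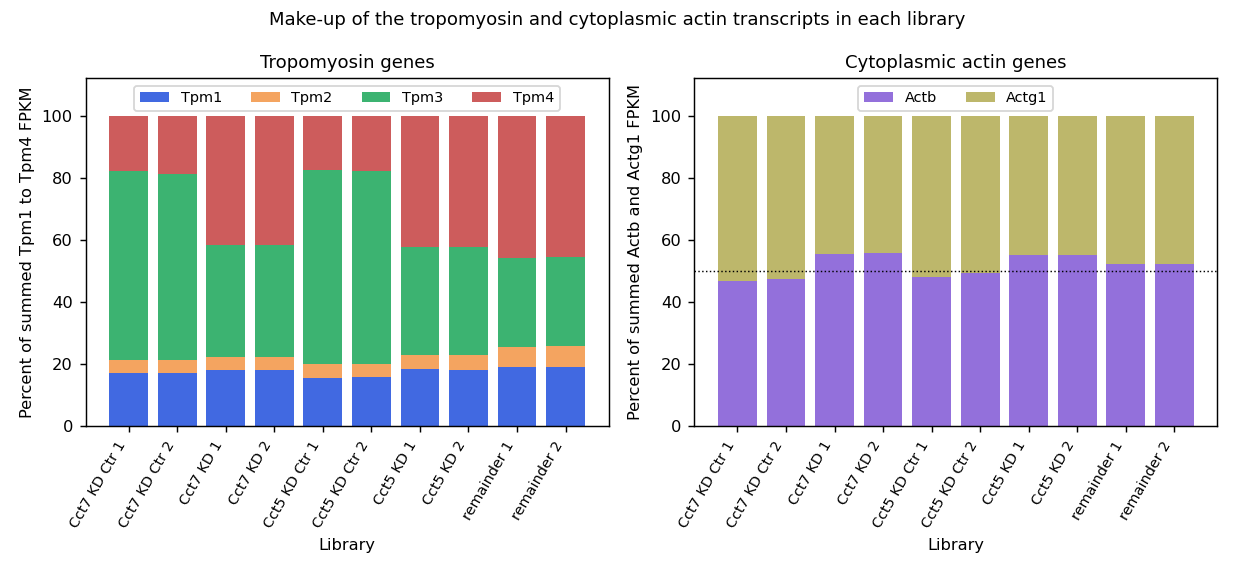
Stacked bars of the percent of summed tropomyosin FPKM (left) and of summed Actb and Actg1 FPKM (right) in each library and in the 2 Cct5 KD remainders; the dotted line marks 50%. Tpm4 grows from at most 18.7% in the Cct7 KD Ctr libraries to at least 41.5% in Cct7 KD, and Actb passes 50% in every knockdown library.

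The cytoplasmic actins Actb (β-actin) and Actg1 (γ-actin), which make up nearly all actin of a non-muscle cell, differed in Cct7 KD. Actb measured 348 and 348 FPKM in Cct7 KD Ctr against 358 and 355 in Cct7 KD. The difference, 0.035 on the log2 scale, did not pass the test (95% interval -0.027 to 0.098, adjusted p = 0.23), and after scaling Actb was called lower, by -0.22. Actg1 measured 397 and 388 FPKM in Cct7 KD Ctr against 287 and 283 in Cct7 KD, with no overlap. Its mean went from 392 ± 6.36 to 285 ± 2.53 FPKM (SD, n = 2 each), 1.38-fold lower (log2 change -0.46, SE 0.027, adjusted p = 3.488e-05), and it was called lower after scaling too, by -0.71. Among all genes, Actb and Actg1 ranked between 144 and 217 from the top in every library.

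Within each library Actb made up 46.7% and 47.3% of the 2 cytoplasmic actins in Cct7 KD Ctr against 55.6% and 55.7% in Cct7 KD. The order of the pair thus turned: there were 1.14 and 1.11 Actg1 per Actb in the controls and 0.800 and 0.796 in the knockdown. The 4 actins summed to 745 and 737 FPKM in Cct7 KD Ctr and to 647 and 640 in Cct7 KD. Tropomyosin transcripts summed to 236 and 239 FPKM in the controls and to 442 and 445 in the knockdown. Tropomyosin per actin was 0.316 and 0.325 in the controls and 0.683 and 0.695 in the knockdown, 2.15-fold higher.

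Cofilin and profilin, the pair of proteins that drive filament turnover, did not move together as deposited. After scaling both were called lower, Pfn1 by more. Cfl1 measured 170 and 181 FPKM in Cct7 KD Ctr against 178 and 182 in Cct7 KD, and the groups overlapped. Its change of 0.036 did not pass the test (95% interval -0.058 to 0.13, adjusted p = 0.40), and after scaling it was called lower, by -0.21. Pfn1 measured 280 and 287 FPKM in Cct7 KD Ctr against 214 and 228 in Cct7 KD, with no overlap. It fell 1.28-fold (log2 change -0.36, SE 0.040, adjusted p = 0.00043), and by 0.61 on the log2 scale after scaling. Cfl1 per Pfn1 was 0.610 and 0.632 in the controls and 0.834 and 0.799 in the knockdown.

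Among their relatives, Pfn2 and Cfl2 rose and Dstn fell. Pfn2, the profilin known from neurons, measured 4.77 and 4.45 FPKM in Cct7 KD Ctr against 18.1 and 20.2 in Cct7 KD (log2 change 1.84, adjusted p = 7.724e-06). Its share of Pfn1 and Pfn2 went from 1.68% and 1.53% to 7.82% and 8.12%. Cfl2, the cofilin known from muscle, measured 13.1 and 12.9 FPKM in the controls and 37.5 and 38.0 in the knockdown, and its share of Cfl1, Cfl2 and Dstn went from 3.67% and 3.46% to 10.8% and 10.9%. Dstn (destrin), a further depolymerising factor of this family, measured 174 and 177 FPKM in the controls and 131 and 128 in the knockdown, and its share went from 48.7% and 47.7% to 37.8% and 36.8%.

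The muscle actins Acta1 (skeletal α-actin) and Acta2 (smooth muscle α-actin) stayed at low levels throughout but were higher in Cct7 KD than in its controls. Acta1 measured 0.0928 and 0.267 FPKM in Cct7 KD Ctr against 1.20 and 1.21 in Cct7 KD, which corresponds to 3 and 9 fragments against 36 and 33. Acta2 measured 0.0659 and 0.190 FPKM in Cct7 KD Ctr against 0.757 and 0.651 in Cct7 KD, or 3 and 9 fragments against 32 and 25. Pooled over libraries and set against depth, the rate was 6.62 times as high for Acta1 (95% exact interval 3.56 to 13.4) and 5.47 times for Acta2 (2.90 to 11.2). The intervals cover counting error only. The sizes rest on few control fragments: without Cct7 KD Ctr replicate 1 the ratios were 4.51 and 3.72, and without replicate 2 they were 13.0 and 10.7, a check added after seeing the data. Together the pair made up 0.0213% and 0.0620% of the 4 actins in the controls and 0.302% and 0.290% in the knockdown. Actc1 (cardiac α-actin) did not exceed 0.268 FPKM in any library.

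Markers of other cell types were read beside these genes. The 8 smooth muscle markers summed to 21.5 to 22.2 FPKM in Cct7 KD Ctr and to 25.2 to 25.6 in Cct7 KD, with 4 and 3 of them under 1 FPKM. Of the 4 that could be tested, Tagln and Cnn1 were called higher and Smtn, an actin-binding protein of smooth muscle, lower, from 11.9 ± 0.39 to 4.67 ± 0.091 FPKM (SD, n = 2 in each), a log2 change of -1.18. Des (desmin) was not called as deposited (6.42 and 6.73 against 6.48 and 7.01 FPKM) and was called lower after scaling. Of those too low to be tested, Myh11, the smooth muscle myosin, measured 0.178 and 0.118 FPKM in the controls and 1.06 and 1.08 in the knockdown, and Myocd, the smooth muscle cofactor of SRF, measured 0.0612 and 0.0419 against 0.301 and 0.342. The skeletal muscle list, 8 of 10 listed, summed to 59.5 to 66.8 and 79.2 to 83.7 FPKM, most of it Mylpf, and the cardiac list, 7 of 9 listed, to 24.7 to 24.8 and 10.2 to 10.4. The trophoblast list, 8 of 9 listed, summed to 29.3 to 31.0 FPKM in the controls and 210 to 212 in the knockdown, nearly all of it the keratins Krt8 and Krt18. Of the 5 trophoblast genes tested, 60% were called higher and 40% lower, the latter being Eomes (-0.36) and Ascl2 (-0.24). After scaling 40% were higher and 40% lower. The primitive endoderm list (10 of 10) went from 233 to 234 up to 306 to 312 FPKM, and the fibroblast list (7 of 10) from 12.0 to 12.8 up to 13.5 to 14.0. Of the 6 endoderm genes tested, 83.3% were called higher and 16.7% (Lama1, -0.43) lower, and 50% and 16.7% after scaling. Gata6 and Pdgfra, among those called higher, averaged under 1 FPKM over the control libraries of both knockdowns. They entered the test through Cct7 KD, which favours a call as higher. Of the 3 fibroblast genes tested, Pdgfrb (1.43) was called higher and Thy1 (-0.65) and Fbln2 (-0.50) lower, with the same calls after scaling. Over all genes tested, 49.3% were called higher and 32% lower as deposited, and 37.4% and 43.7% after scaling. All these sums are as deposited, and scaling would divide the Cct7 KD values by 1.19 and 1.20. No marker was at 0 in a whole group of this comparison. The part of such cells in the changes above was not tested.

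Cct5 KD against Cct5 KD Ctr gave, as deposited, 6 of the 8 genes higher and 1 lower, where 89.3% of 14179 genes tested were called, 78% higher and 11.3% lower. The median change of all genes was 0.68, and scaling by the median of ratios took it to -0.034, with 81.3% called (38.5% higher, 42.7% lower) and the 8 genes at 3 higher and 5 lower. When the remainder, also scaled, stood in for Cct5 KD, 83.2% of 12998 genes were called, 41.5% higher and 41.7% lower, and the 8 genes again split into 3 higher and 5 lower. In every setting the genes called higher included Tpm1, Tpm2 and Tpm4.

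Tpm4 measured 41.5 and 43.2 FPKM in Cct5 KD Ctr against 263 and 266 in Cct5 KD as deposited (log2 change 2.62, SE 0.026, adjusted p = 1.668e-07), and its change was 1.81 (SE 0.029) with the remainder. Tpm1 measured 37.3 and 38.9 FPKM in Cct5 KD Ctr against 114 and 115 in Cct5 KD, with a change of 1.56 as deposited and 0.71 with the remainder. Tpm2 measured 10.6 and 10.2 against 27.9 and 29.6 FPKM, with changes of 1.38 and 0.99. All 3 tropomyosins thus stood above their controls as deposited and with the scaled remainder. That scaling divided the remainders by 0.381 and 0.384. Before it, the remainders of Tpm1 and Tpm2 lay below their controls and those of Tpm4 above.

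Of the other 5 genes, Actb, Cfl1 and Tpm3 changed direction with the setting, and Actg1 and Pfn1 did not. Actb measured 361 and 391 FPKM in Cct5 KD Ctr against 474 and 469 in Cct5 KD, a rise of 0.33 (adjusted p = 0.00042) as deposited but a fall of -1.03 (adjusted p = 3.46e-06) with the remainder. Cfl1 measured 185 and 196 against 263 and 266 FPKM and Tpm3 150 and 153 against 216 and 218, with changes of 0.47 and 0.52 as deposited and -0.24 and -0.69 with the remainder. Actg1 measured 391 and 402 against 387 and 382 FPKM and did not pass the test as deposited (-0.045, adjusted p = 0.11). With the remainder it was called lower, by -1.24.

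Pfn1 measured 299 and 307 FPKM in Cct5 KD Ctr against 273 and 289 in Cct5 KD. It was called lower in each setting, by -0.11 as deposited (adjusted p = 0.020), -0.93 after scaling and -1.83 with the remainder. The call as deposited was lost without Cct5 KD Ctr replicate 2 (adjusted p = 0.0955) or Cct5 KD replicate 1 (adjusted p = 0.0901). Its share of the deposited value that lay in the remainder was 12.0% and 11.1%, lower than that of Tpm2 (28.8% and 28.8%) and Tpm4 (21.6% and 21.9%).

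Shares within a library do not depend on scaling. In Cct5 KD Ctr, Actb made up 48.0% and 49.3% of the cytoplasmic actins, against 55.0% and 55.1% in Cct5 KD. In both remainders its share was 52.2%. Tpm3 made up 62.6% and 62.3% of tropomyosin FPKM in the controls, against 34.8% and 34.6% in Cct5 KD, and 28.4% and 28.6% in the remainders. Tpm4 went from 17.3% and 17.7% to 42.4% in both Cct5 KD libraries, and to 46.0% and 45.6% in the remainders. The order of Tpm3 and Tpm4 was thus turned in the remainders as well.

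For Acta1 and Acta2 the remainder gave a different picture from the deposited values. Acta1 measured 0.152 and 0.195 FPKM in Cct5 KD Ctr against 1.43 and 1.44 in Cct5 KD, but 0.227 and 0.204 in the scaled remainders. Acta2 measured 0.126 and 0.278 against 0.860 and 0.769 FPKM, and 0.0230 and 0.0968 in the scaled remainders. Of the deposited Cct5 KD value, 6.02% and 5.46% lay in the remainder for Acta1 and 1.02% and 4.83% for Acta2. Thus the high Acta1 and Acta2 values of Cct5 KD lay almost wholly in the part that equals 9/8 of Cct7 KD.

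**Figure D3:**
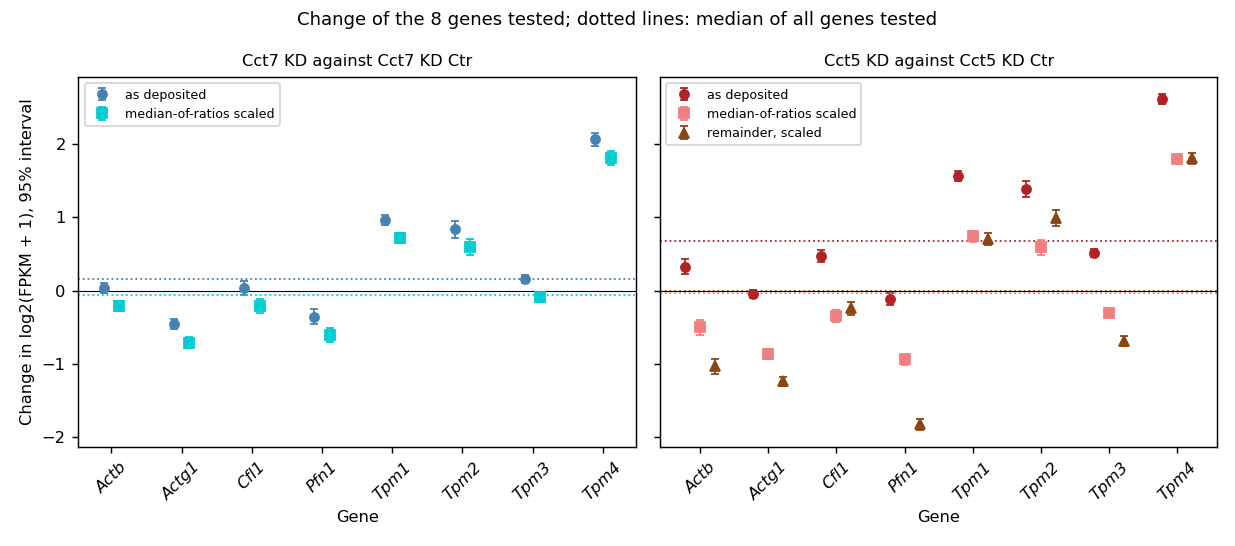
Change in log2(FPKM + 1) with its 95% interval for the 8 genes tested in Cct7 KD (left) and Cct5 KD (right), as deposited, after median-of-ratios scaling and with the scaled remainder; dotted lines give the median of all genes in that setting. Tpm1, Tpm2 and Tpm4 lie above 0 in every setting; Actb, Cfl1 and Tpm3 lie above 0 as deposited and below 0 after scaling.

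Ordered by level as deposited over the 4 groups, Tpm1, Tpm2, Tpm3 and Tpm4 were each highest in Cct5 KD, next in Cct7 KD, then in the controls. For Tpm4 the 2 control groups overlapped, while for Tpm1, Tpm2 and Tpm3 they did not. Actb and Cfl1 were highest in Cct5 KD, then in Cct5 KD Ctr, Cct7 KD and Cct7 KD Ctr, with overlap between the last pair for Cfl1. Actg1 was lowest in Cct7 KD, and its 2 control groups overlapped. Pfn1 was highest in Cct5 KD Ctr and lowest in Cct7 KD, with overlap between Cct7 KD Ctr and Cct5 KD. For these 10 genes the place of Cct5 KD above Cct7 KD is fixed by the factor of 9/8 and is not a measurement of their difference. The place of Cct5 KD above the controls depends on scaling. FPKM over all genes summed to 745912 and 744177 in Cct5 KD against 495553 and 496684 in Cct5 KD Ctr. After scaling, Actb (-0.50), Cfl1 (-0.35) and Tpm3 (-0.31) were called lower in Cct5 KD than in Cct5 KD Ctr, while Tpm1, Tpm2 and Tpm4 stayed higher.

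The 2 sets of empty-vector controls were compared as a background. None of the 8 genes passed the test (limma, adjusted p from 0.19 for Pfn1 to 0.82 for Actg1), and 0% of 12762 genes were called. At an unadjusted p under 0.05 there were 2296 of all genes (18%) and 5 of the 8 (62.5%), namely Actb, Cfl1, Pfn1, Tpm1 and Tpm3. Cfl1 differed by 0.11 and Actb by 0.11 on the log2 scale, Cct5 KD Ctr above Cct7 KD Ctr, and Tpm1 by -0.089. These differences exceed the change of Actb and Cfl1 in Cct7 KD as deposited (0.035 and 0.036) and are far below the changes of Tpm1, Tpm2 and Tpm4.

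Other genes of the actin pathway were read from 9 lists in Cct7 KD. Their calls stand beside those of all genes tested, 49.3% higher and 32% lower as deposited and 37.4% and 43.7% after scaling, and no test compared a list with the other genes. The filter averages knockdown and control libraries. A gene averaging under 1 FPKM in the controls, such as Cap2 or Naa80, therefore entered only when it was higher in the knockdown. Such genes add to the shares called higher in these lists, and the same filter was applied to all genes. Of the 21 tested genes of the cofilin and profilin families and of filament turnover, 17 were higher (81%) and 3 lower (14.3%), with a median change of 0.59 against 0.15 for all genes, and 15 (71.4%) and 3 after scaling. Beside Pfn2, the largest rise was in Cap2, a cyclase-associated protein that recycles monomers, from 0.437 ± 0.030 to 3.97 ± 0.47 FPKM (SD, n = 2 each). Twf2 (twinfilin 2), a monomer-binding and capping protein, fell 1.85-fold, and Dstn fell 1.35-fold.

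All 9 genes of the Arp2/3 complex, which starts branches on existing filaments, were called, where 81.4% of all genes were. They were 7 higher (77.8%) and 2 lower (22.2%), with a median of 0.29, and 4 (44.4%) and 2 after scaling. Arpc5 rose 2.05-fold and Arpc1a 1.72-fold. The 2 that fell encode the actin-related subunits themselves, Actr2 (1.60-fold) and Actr3 (1.14-fold). Of 22 formins and other nucleation factors, 13 were higher (59.1%) and 7 lower (31.8%), with a median of 0.35, and 8 and 8 after scaling (36.4% each), not far from the shares over all genes. Among them Daam1, a formin of planar polarity signalling, rose 2.11-fold and Spire1 rose 1.59-fold. Cobl (cordon-bleu) fell 2.35-fold and Diaph1, a formin, fell 1.94-fold.

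Monomer-binding, capping and severing genes were 14 higher (87.5%) and 2 lower (12.5%) of 16 tested, against 49.3% and 32% of all genes, with a median of 0.68. After scaling they were 10 higher (62.5%) and 2 lower, against 37.4% and 43.7%. Gsn (gelsolin), which severs and caps filaments, measured 3.00 ± 0.17 FPKM in the controls and 32.8 ± 0.62 in the knockdown (SD, n = 2 each), a 10.9-fold rise. Add1 (adducin 1), which caps filaments at the membrane skeleton, rose 3.15-fold. Capg, a gelsolin relative that caps without severing, fell 2.42-fold, and Tmsb10 (thymosin β10), which holds monomers, fell 1.56-fold from 867 ± 44.7 FPKM.

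Among 20 crosslinkers and adhesion proteins, 14 were higher (70%) and 2 lower (10%), with a median of 0.33. After scaling 10 (50%) and 7 (35%) were, against 37.4% and 43.7% of all genes. Zyx (zyxin), found at stress fibres and focal adhesions, rose 5.66-fold and Flnc (filamin C) 4.49-fold. Enah (Mena), which extends filaments at leading edges, fell 4.61-fold from 102 ± 3.93 to 22.1 ± 0.52 FPKM (SD, n = 2 each), and Fscn1 (fascin), which bundles filaments, fell 1.24-fold. Of 18 genes of myosin II, calponins and caldesmon, 12 were higher (66.7%) and 4 lower (22.2%), with a median of 0.39, and 10 (55.6%) and 5 (27.8%) after scaling. Tagln (transgelin) rose 5.92-fold and Cald1 (caldesmon) 2.30-fold, while Tagln3 fell 2.86-fold and Myh9, the non-muscle myosin IIA heavy chain, fell 1.78-fold.

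**Figure D4:**
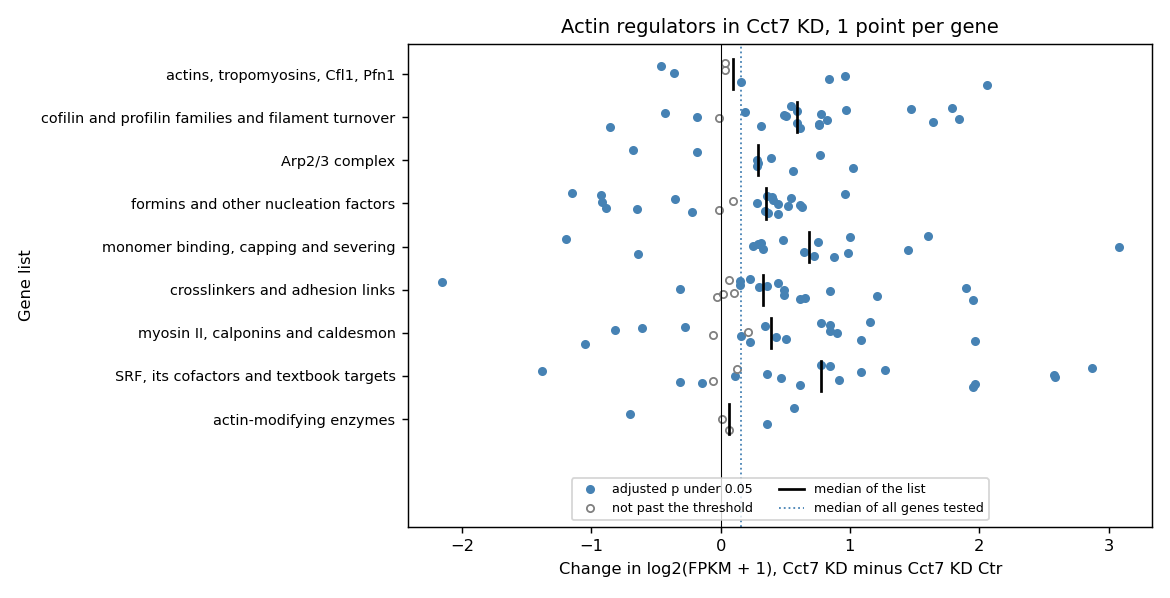
Change in log2(FPKM + 1) between Cct7 KD and Cct7 KD Ctr as deposited, 1 point per tested gene, in the 8 members and in 8 lists of actin regulators; filled points passed adjusted p under 0.05, black bars are list medians and the dotted line is the median of all genes. The members spread from -0.46 (Actg1) to 2.06 (Tpm4), and the SRF list has the highest median, 0.77; after scaling the list medians lie lower, from -0.18 to 0.60.

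The SRF list, which holds SRF, its cofactors and textbook targets, had 14 of 19 tested genes higher (73.7%, against 49.3% of all genes) and 3 lower, with a median of 0.77. After scaling 13 were higher (68.4%, against 37.4%) and 4 lower. It shares genes with the crosslinker and myosin lists (7 genes stand in 2 lists). The largest rises were in immediate early genes, Egr1 from 1.52 ± 0.066 to 17.4 ± 0.56 FPKM and Junb from 5.72 ± 0.41 to 39.4 ± 1.54 (SD, n = 2 each). Elk4, an ETS partner of SRF, fell 2.90-fold and Scai, a repressor of MRTF, fell 1.28-fold. Srf itself measured 7.93 ± 0.021 and 7.08 ± 0.29 FPKM, a change of -0.14 (adjusted p = 0.044). The call as deposited was lost in the fits without each library in turn. After median-of-ratios scaling Srf was called lower in Cct7 KD, by -0.36 (limma, adjusted p = 0.0011). In Cct5 KD it was called higher as deposited (0.29) and lower after scaling (-0.44) and with the remainder (-0.54).

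Enzymes that modify actin were measured at 5 tested genes, of which 2 were higher and 1 lower, with a median of 0.062 (1 and 3 after scaling). Ate1, which arginylates β-actin, rose 1.52-fold. Naa80, which acetylates the processed actin N-terminus, went from 0.845 ± 0.069 to 1.37 ± 0.047 FPKM (adjusted p = 0.0115), a call lost without Cct7 KD Ctr replicate 1 (adjusted p = 0.0637). Mical1, an oxidase that takes filaments apart, fell 1.77-fold. Of the further actins, Actc1 was below the level tested, and Actg2 and Actbl2 were not analysed here.

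In Cct5 KD with the scaled remainder the same lists held calls in both directions, and no test compared the knockdowns. Over all 12998 genes 41.5% were higher and 41.7% lower in that setting. Filament turnover genes were 9 higher (45%) and 10 lower (50%) of 20 tested, Arp2/3 genes 3 (33.3%) and 5 (55.6%) of 9, and nucleation factors 5 (25%) and 15 (75%) of 20. Monomer-binding and capping genes were 8 higher (53.3%) and 4 lower (26.7%) of 15, crosslinkers 4 (21.1%) and 11 (57.9%) of 19, and myosin II genes 9 (52.9%) and 4 (23.5%) of 17. The SRF list was 6 higher (33.3%) and 8 lower (44.4%) of 18, and the modifying enzymes 3 and 1 of 5. In the deposited Cct5 KD values 78% of all genes were higher and 11.3% lower. The SRF list was then 89.5% higher and 5.26% lower, filament turnover genes 95.2% and 0%, and nucleation factors 72.7% and 22.7%. After scaling of those values 38.5% of all genes were higher and 42.7% lower. The same lists, in that order, were then at 57.9% and 21.1%, 66.7% and 19%, and 22.7% and 40.9%.

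For the largest rise and the largest fall among the 8 members tested (on the log2(FPKM + 1) scale), the genes with the most similar profile were sought over the 6 libraries other than Cct5 KD, among 6518 genes averaging 10 FPKM or more. Closest to Tpm4 were Shisa5, Rhox13 and Gm5039, with root mean square differences of 0.039, 0.040 and 0.042 on the log2 scale. Shisa5, for example, had means of 6.80 FPKM in Cct7 KD Ctr, 32.2 in Cct7 KD and 6.47 in Cct5 KD Ctr. Closest to Actg1 were Ipo9, Def8 and Ddx27, with differences of 0.012, 0.013 and 0.016. Ipo9, an importin, is known to carry actin into the nucleus, and its means were 43.2, 31.3 and 43.3 FPKM in the same 3 groups. Likeness here rests mainly on a step of similar size in Cct7 KD, to 0.726, 0.718 and 0.724 of the control mean for Ipo9, Def8 and Ddx27. A shared function was not tested.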

How the data were processed

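Poly(A) RNA of 8 libraries was sequenced from strand-specific libraries, per the labels' protocols. The authors deposited 2 tables of FPKM, each holding a knockdown and its control. HTSeq and mm10 are named in the submitters' processing notes. The aligner, versions, gene lengths and filters are not stated there or in the labels. IDs listed 2 times (8 and 6) were left out. The 10 genes, the 9 pathway lists and the 7 marker lists were chosen with earlier results of these data known. Each comparison was a limma 3.58.1 fit (R 4.3.3, eBayes, trend on the mean) of its 4 libraries on unscaled log2(FPKM + 1), over genes averaging 1 FPKM or more, with Benjamini-Hochberg adjustment over all genes. Log2 changes are on that scale and understate changes of low genes; plain folds are ratios of mean FPKM.

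Fragments were recovered from the step of low FPKM values, accepted where at least 95% of values between 0.5 and 20 fragments were whole within 0.05, which failed for Cct5 KD. The precision of low values follows from depths of 18.9 to 54.7 M fragments. The remainder is Cct5 KD minus 9/8 of Cct7 KD of the same number. Scaling was by the median of ratios with controls set to a mean factor of 1. The test was checked on simulated data. From each pathway list the text names up to 2 rises and 2 falls, the largest past the threshold in Cct7 KD with no overlap of libraries, and Srf; Cfl2, Actc1 and the single markers were named after their values were seen. Alternatives tried were the scaling, no filter, a pseudocount of 0.1, the replicate number as a block, leaving out each library, and the remainder. Sequences came from RefSeq promoters (GRCm38.p6) and GENCODE vM21 transcripts.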

Additional observations from a re-analysis of the deposited data

How the results depend on the processing

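Tpm1, Tpm2 and Tpm4 were called higher in both knockdown comparisons under every alternative run, and Actg1 and Pfn1 were called lower in Cct7 KD under every one. Median-of-ratios scaling turned 3 genes: in Cct7 KD, Actb changed by -0.22, Cfl1 by -0.21 and Tpm3 by -0.091, which made 5 genes lower, and in Cct5 KD, Actb changed by -0.50, Cfl1 by -0.35 and Tpm3 by -0.31, and Actg1, not called as deposited, was called lower by -0.87, which left 3 genes higher and 5 lower. With the remainder, Actb changed by -1.03, Cfl1 by -0.24, Tpm3 by -0.69 and Actg1 by -1.24, again with 3 higher and 5 lower, and the shares were 52.2% for Actb, 19.1% for Tpm1, 6.58% for Tpm2, 28.5% for Tpm3 and 45.8% for Tpm4. Leaving out 1 library at a time, where the lone library left is assumed to vary like the other group, gave 0 to 2 genes lower in Cct5 KD. In the same fits the change of Cfl1 in Cct7 KD ranged from -0.0079 (without Cct7 KD Ctr replicate 1) to 0.081. Between the controls, Actg1 ranged from -0.0054 (without Cct5 KD Ctr replicate 2) to 0.036, with -0.0014 without Cct7 KD Ctr replicate 2, and Tpm4 from -0.075 to 0.0115 (without Cct7 KD Ctr replicate 2). The cause was not tested. Same-numbered libraries did not deviate together (correlations -0.04, -0.01 and 0.04), so they share only a number; with the replicate block no call of the 8 genes changed, 4 were higher and 2 lower in Cct7 KD, 6 and 1 in Cct5 KD, and Srf lost its call (adjusted p = 0.0711). A pseudocount of 0.1 and no filter changed no call of the 8 genes; without the filter Srf had adjusted p = 0.0573, and Naa80 had 0.0562 after scaling. Depth limits Acta1 and Acta2, at 3 to 14 fragments in each control library, and 2 libraries per group limit every test.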
